A study of Mus musculus with 9 samples.

Results

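The motor and scaffold genes of the sperm tail were followed in the testes of 9 mice. The set holds the 77 genes, of 22337 in the deposited table, whose symbols begin with Dnah, Dnai, Dnaaf, Drc, Cfap, Rsph or Tekt followed by a digit. They comprise 35 Cfap, 15 Dnah, 8 Rsph, 7 Dnaaf, 5 Tekt, 4 Dnai and 3 Drc genes. All testes came from mice 3 weeks of age, with 3 animals of the wild-type, 3 of Piwil4 WT/R264W and 3 of Piwil4 R264W/R264W. The mutant mice carry a knock-in change of arginine to tryptophan in the PAZ domain of PIWIL4, a PIWI protein of fetal male germ cells, in heterozygous (Piwil4 WT/R264W) or homozygous (Piwil4 R264W/R264W) form, and their testes are called heterozygous and homozygous here. The knock-in was made by CRISPR-Cas9 in C57BL/6 zygotes, and the number of founder lines is not given in the sources used here. Polyadenylated RNA of the whole testis was sequenced, so every value is an average over germ cells and somatic cells, and nothing in the labels says that a replicate number links animals of different genotypes. Fewer cells of a type and less RNA per cell cannot be told apart in such data.

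The tail of a sperm is built around an axoneme, a ring of microtubule doublets about a central pair. Dynein arms stand on the doublets and bend the tail. Each arm is a complex of heavy chains, which are the motors (Dnah genes), with intermediate chains (Dnai) and light chains. Outer arms supply power and inner arms shape the beat. Arms are preassembled in the cytoplasm with the help of assembly factors (Dnaaf genes, Cfap298 and Cfap300). Radial spokes (Rsph genes, Cfap61, Cfap91 and Cfap206), the central apparatus and the nexin-dynein regulatory complex (Drc genes) pass control signals to the arms. Tether and docking proteins such as Cfap43, Cfap44, Cfap57, Cfap73 and Cfap100 attach inner arms, while tektins and other microtubule inner proteins line the lumen of the doublets. The same parts also make motile cilia of the airway, brain ventricles and oviduct, in part from paralogous genes. At 3 weeks of age the first wave of spermatogenesis has brought many germ cells through meiosis, and the first round spermatids are appearing.

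Libraries held 18.0 to 24.3 M estimated counts, of which the 77 genes took 1.39 to 1.73%. Levels are given as FPKM where genes are compared with each other, since FPKM is corrected for transcript length. They are given as CPM, counts scaled to the size of the library with TMM, where testes are compared for the same gene. Errors are SDs over testes unless an SE is named. A count of 0 leaves up to 3 counts possible, at most 0.167 CPM before TMM scaling, and this covers counting error only. Progress of the first wave was measured as a round spermatid score, the mean log2 CPM of 20 spermatid genes such as Acrv1, Spaca1, Izumo1, Tnp1 and Prm1, none of which is among the 77. The score was 6.03, 2.89 and 1.77 in wild-type mice, 5.10, 3.79 and 1.21 in heterozygous testes and 2.74, 3.89 and 5.87 in homozygous testes. It therefore spread widely within each genotype and overlapped between genotypes. A like score over 20 pachytene spermatocyte genes lay between 7.92 and 8.22 in all testes. Piwil4 RNA itself was at 1.03 to 2.10 CPM, and as the knock-in changes an amino acid its level does not check the labels.

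The flagellar genes were already strongly expressed at this age. Of the 77 genes, 12 had a mean of at least 100 FPKM, 50 lay between 10 and 100, 9 between 1 and 10 and 6 below 1, with a median of 28.5 FPKM. A mean of at least 10 FPKM was reached by 80.5% of them and by 31.8% of all genes in the table. Rsph1, which encodes a protein of the spoke head, stood first with 977 ± 24.6 FPKM (SD, n = 9), and only 18 genes of the whole table had a higher mean. Its FPKM was 929, 1005 and 995 in wild-type mice, 960, 991 and 980 in heterozygous testes and 952, 987 and 991 in homozygous testes. Rsph1 thus varied little between animals, and its genotype ranges overlapped.

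**Figure D1:**
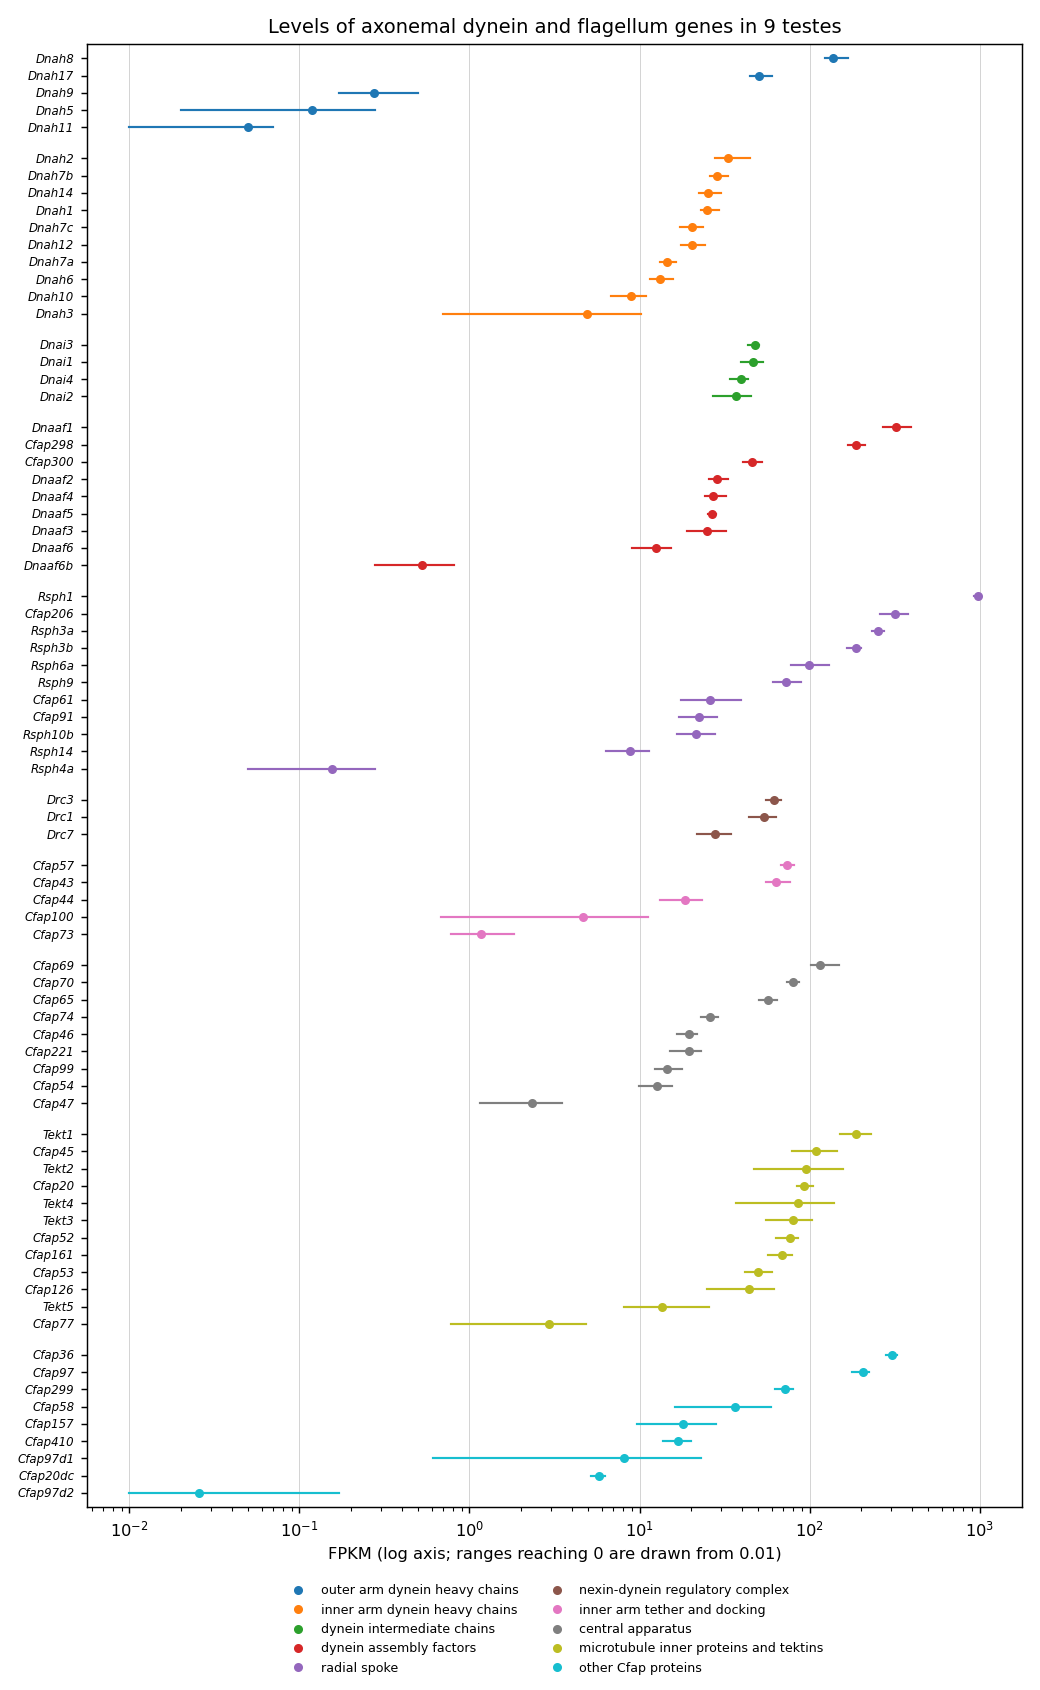
Mean FPKM over 9 testes (points) and the lowest to highest testis (lines) of the 77 genes on a log axis, grouped by the part of the axoneme their products belong to. Rsph1 lies at 977 FPKM, and Dnah5, Dnah9 and Dnah11 lie below 1 while the other outer arm heavy chains Dnah8 and Dnah17 lie at 137 and 50.6.

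After Rsph1 came Dnaaf1, an assembly factor, with 324 ± 40.8 FPKM (SD, n = 9), 3.01-fold below it. The spoke-base gene Cfap206 was at 317 ± 41.0 FPKM and Cfap36, whose product is also found in primary cilia, at 304 ± 17.2 FPKM. The spoke-stalk genes Rsph3a and Rsph3b were at 254 ± 14.9 and 188 ± 11.9 FPKM. These near-identical copies had fractional estimated counts, so reads could have been divided between them and their ratio of 1.35 is uncertain. Cfap97 (206 ± 13.8), Tekt1 (188 ± 27.7), Cfap298 (188 ± 13.5) and Dnah8 (137 ± 13.9 FPKM) completed the first 10. By part of the axoneme, median levels were highest for microtubule inner proteins and tektins (78.1 FPKM, 12 genes) and for radial spoke genes (73.0 FPKM, 11 genes). The 3 genes of the nexin-dynein regulatory complex had a median of 54.2 FPKM, led by Drc3 (61.8) and Drc1 (54.2). The 4 intermediate chains lay close together, from Dnai2 with 37.0 ± 6.79 to Dnai3 with 47.8 ± 2.37 FPKM. Assembly factors had a median of 27.1 FPKM, inner arm heavy chains of 20.4, central apparatus genes of 19.6 and tether and docking genes of 18.6. Among the central apparatus genes Cfap69 (116 ± 14.7) and Cfap70 (80.1 ± 4.47 FPKM) were the most abundant, and among the tether genes Cfap57 (73.4 ± 3.81) and Cfap43 (63.9 ± 5.91 FPKM).

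The outer arm heavy chains divided sharply by paralog. Dnah8 and Dnah17, the forms known from sperm, were at 137 ± 13.9 and 50.6 ± 5.80 FPKM (SD, n = 9), with Dnah8 2.71-fold above Dnah17. Dnah5, Dnah9 and Dnah11, the forms known from motile cilia of the airway and embryonic node, were at 0.12 ± 0.096, 0.27 ± 0.115 and 0.05 ± 0.019 FPKM. Dnah8 was therefore 1154-fold above Dnah5, its closest relative in cilia. Dnah17 was 184-fold above Dnah9 and 1011-fold above Dnah11. The ciliary genes rested on few reads, with Dnah5 at 7 to 91 estimated counts per library, and the size of these ratios shares that imprecision. Dnah8 overlaps Glo1 and Dnah17 overlaps Pgs1 in the annotation of GRCm38, and whether strand was used in counting is not given in the sources used here.

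A division of the same kind was present in the spoke head. Rsph6a, the form known from sperm, was at 99.3 ± 16.0 FPKM, and Rsph4a, the form known from cilia, at 0.16 ± 0.079 FPKM, a ratio of 638. Rsph9, which encodes another protein of the spoke head, was at 73.0 ± 9.39 FPKM. Inner arm heavy chains had no such empty members, since all 10 lay between 4.94 FPKM (Dnah3) and 32.9 FPKM (Dnah2). Dnah7a, Dnah7b and Dnah7c, near-identical neighbours on chromosome 1, were at 14.5, 28.5 and 20.5 FPKM and had fractional counts, so the division between them is uncertain. Cfap97d2 was the only member with 3 counts or fewer in every library, with 1 count in heterozygous testis 1, 3 in homozygous testis 3 and 0 in the other 7, and it did not pass the filter on low counts in any comparison. Defining genes of multiciliated epithelium were at or near 0, with at most 0.263 CPM for Mcidas, 0.343 for Gmnc, 0.098 for Sntn and 0.049 for Tmem212 in any library. Of the 15 genes of that list, Foxj1 (15.3 to 72.5 CPM) and Deup1 (28.7 to 142 CPM), which are known in germ cells as well, and Cdhr4 (15.2 to 24.7 CPM) were well above 0. Fam183b (0.735 to 13.6 CPM), Tppp3 (2.52 to 5.15) and Ccno (1.91 to 3.17) were lower but present in every library.

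Between testes the 77 genes did not move as a block. For the 75 members with more than 3 counts in every library, the highest testis exceeded the lowest by a median of 1.58-fold. The ratio was under 1.5 for 35 members, over 2 for 18 and over 10 for 4, namely Cfap97d1 (41.9), Cfap100 (22.8), Dnah3 (15.1) and Dnah5 (13.9). Heterozygous testis 3, which had the lowest score, gave the lowest CPM of 52 members. Wild-type testis 1 and homozygous testis 3, which had the highest scores, gave the highest CPM of 30 members each. The share of all genes with their extremes in these testes was not counted. The summed CPM of the members ran from 13332 in heterozygous testis 3 to 18203 in homozygous testis 3 and 18358 in wild-type testis 1.

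To ask how each gene followed the first wave, log2 CPM was fitted on the score with genotype in the model (edgeR, all 9 testes, adjusted over 15771 genes). A slope of 1 means that a gene doubled with each unit of the score, that is, with each doubling of the spermatid genes. Of the 76 members tested, 48 (63.2%) had a positive slope at an adjusted p under 0.05 and 0 had a negative slope. Over all genes 17.6% had a positive and 8.61% a negative slope at that threshold. The median slope was 0.10 for the members and -0.01 for all genes. Without the 2 testes farthest from the median score, wild-type testis 1 and heterozygous testis 3, 16 members remained above the threshold, beside 6.45% of all genes. They were Cfap45, Cfap47, Cfap58, Cfap61, Cfap91, Cfap97d1, Cfap100, Cfap126, Cfap157, Dnah3, Dnah10, Rsph10b, Tekt2, Tekt3, Tekt4 and Tekt5. Rises given below for other members did not hold in that fit. Leaving out only wild-type testis 1 or only heterozygous testis 3 gave 31 members each. Score and gene levels come from the same libraries and share their scaling.

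With genotype in the model, the slopes already rest on differences between testes within genotypes. The counts that follow describe the same values by genotype and are not a further test. In all 3 genotypes, 63 of 76 members (82.9%) were higher in the testis with the highest score than in that with the lowest, a pattern present in 28.0% of all genes. All 3 testes stood in the order of the score in every genotype for 20 members (26.3%), against 7.19% of all genes.

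**Figure D2:**
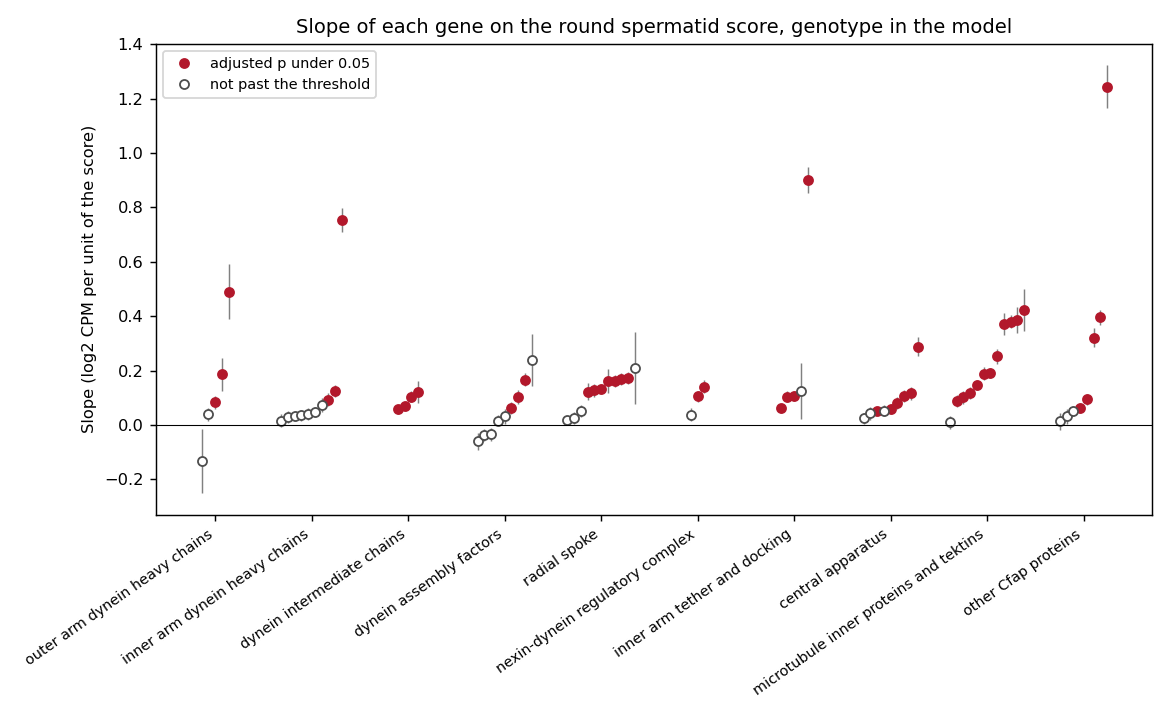
Slope of each member on the round spermatid score (log2 CPM per unit of the score, genotype in the model), with bars of 1 SE, by part of the axoneme. Filled points passed an adjusted p under 0.05 in edgeR. Cfap97d1, Cfap100 and Dnah3 stand above the other members at 1.24, 0.90 and 0.75.

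A few genes rose steeply. Cfap97d1, which is known to be needed for the sperm axoneme, was at 17.6, 0.980 and 0.578 CPM in wild-type mice. It was at 10.03, 1.40 and 0.420 CPM in heterozygous testes and at 0.894, 3.34 and 15.0 CPM in homozygous testes. It was high in the 3 testes with the highest scores and at most 3.34 CPM in the other 6, in every genotype. Its slope of 1.24 (SE 0.078, edgeR adjusted p = 4.08e-08) was above that of 99.1% of all genes tested.

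Cfap100, which helps to dock inner arms, ranged from 1.05 CPM in heterozygous testis 3 to 24.0 CPM in wild-type testis 1. Its slope was 0.90 (SE 0.048, edgeR adjusted p = 8.93e-09). Dnah3, an inner arm heavy chain, was at 127, 33.1 and 12.8 CPM in wild-type mice. The heterozygous testes had 90.1, 52.3 and 8.40 CPM and the homozygous testes 27.4, 48.9 and 112 CPM of Dnah3. It stood in the order of the score within every genotype, with a slope of 0.75 (SE 0.045, edgeR adjusted p = 2.35e-08). All 3 genes kept an adjusted p of 0.000152 or less without the 2 testes farthest from the median score. Cfap97d1 overlaps Dusp3, Cfap100 overlaps Zxdc and Dnah3 overlaps Lyrm1 in the annotation, and reads of such pairs could not be separated here.

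The other 9 inner arm heavy chains had slopes that ran from 0.02 (Dnah7b) to 0.13 (Dnah10). Of the 10 genes Dnah3, Dnah10 and Dnah6 passed the threshold. The outer arm pair of sperm had slopes of 0.04 for Dnah8 (SE 0.024, edgeR adjusted p = 0.247) and 0.08 for Dnah17 (SE 0.024, adjusted p = 0.0199). Dnah8 was at 2112, 2357 and 1830 CPM in wild-type mice, 2072, 1705 and 1763 in heterozygous testes and 1859, 1785 and 2028 in homozygous testes. The testis with the lowest score thus had a Dnah8 level inside the range of the others. Dnah9 had a slope of 0.19 (SE 0.061, adjusted p = 0.0406) and Dnah11 of -0.13 (SE 0.118, adjusted p = 0.428), at 1.70 to 3.49 and 0.172 to 0.851 CPM.

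Of the 12 microtubule inner protein and tektin genes 11 rose, with a median slope of 0.19. Tektins form filaments along the doublet walls, and all 5 rose, with slopes of 0.39 (Tekt5), 0.38 (Tekt2), 0.37 (Tekt4), 0.19 (Tekt3) and 0.15 (Tekt1). Tekt2 was at 231, 108 and 79.6 CPM in wild-type mice, 186, 161 and 68.4 in heterozygous testes and 104, 132 and 252 in homozygous testes. Tekt2 followed the order of the score in each genotype. Cfap77, an inner protein of the B tubule, rose with a slope of 0.42 (SE 0.077, edgeR adjusted p = 0.00127) but lost the call without the 2 testes farthest from the median score (0.28, adjusted p = 0.304). Cfap45 and Cfap126 rose with slopes of 0.19 and 0.25 and kept their calls there (adjusted p = 0.00487 and 0.0260). The tektins other than Tekt1 also kept theirs. Tekt1 (adjusted p = 0.0927), Cfap53 (0.31), Cfap52 (0.415) and Cfap161 (0.44) lost theirs, as Cfap77 did. The exception was Cfap20, an inner junction protein that is also a part of centrioles, with a slope of 0.01 (SE 0.023, adjusted p = 0.803) and a sign that changed with the processing.

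Among the remaining parts, 7 of 11 radial spoke genes rose, with slopes of up to 0.17 (Rsph10b and Cfap91). Rsph1, the most abundant member, had a slope of 0.02 (SE 0.016, edgeR adjusted p = 0.428). All 4 intermediate chains rose, from 0.06 (Dnai3) to 0.12 (Dnai2), as did Drc1 (0.11) and Drc7 (0.14) but not Drc3 (0.04, adjusted p = 0.276). None of these calls held without the 2 testes farthest from the median score (edgeR adjusted p from 0.198 for Dnai1 to 0.551 for Dnai2). Of 9 central apparatus genes 6 rose, led by Cfap47 (0.29, adjusted p = 3.63e-05), and of 5 tether and docking genes 4 rose. Among the other Cfap genes 5 of 8 rose, among them Cfap58 (0.40) and Cfap157 (0.32), both known to be needed for sperm tails. Cfap58 and Cfap43, both on chromosome 19, had slopes of 0.40 and 0.10.

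Of 9 dynein assembly factors 3 rose, Dnaaf3 with a slope of 0.17, Dnaaf1 with 0.10 and Cfap298 with 0.06. These 3 lost their calls without the 2 testes farthest from the median score (edgeR adjusted p = 0.117, 0.374 and 0.582). Of the 6 that did not pass the test, Dnaaf6 (-0.06), Dnaaf4 (-0.04) and Cfap300 (-0.04) had slopes below 0. Cfap300 was at 76.8, 69.3 and 82.6 CPM in wild-type mice, 65.5, 77.4 and 78.4 in heterozygous testes and 76.1, 79.0 and 68.6 in homozygous testes. The testes with the highest scores were not the highest for Cfap300 in any genotype. Cfap410, known from the base of cilia, had a slope of 0.01 (adjusted p = 0.764). Whether the shares of members called differ between the parts of the axoneme was not tested.

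**Figure D3:**
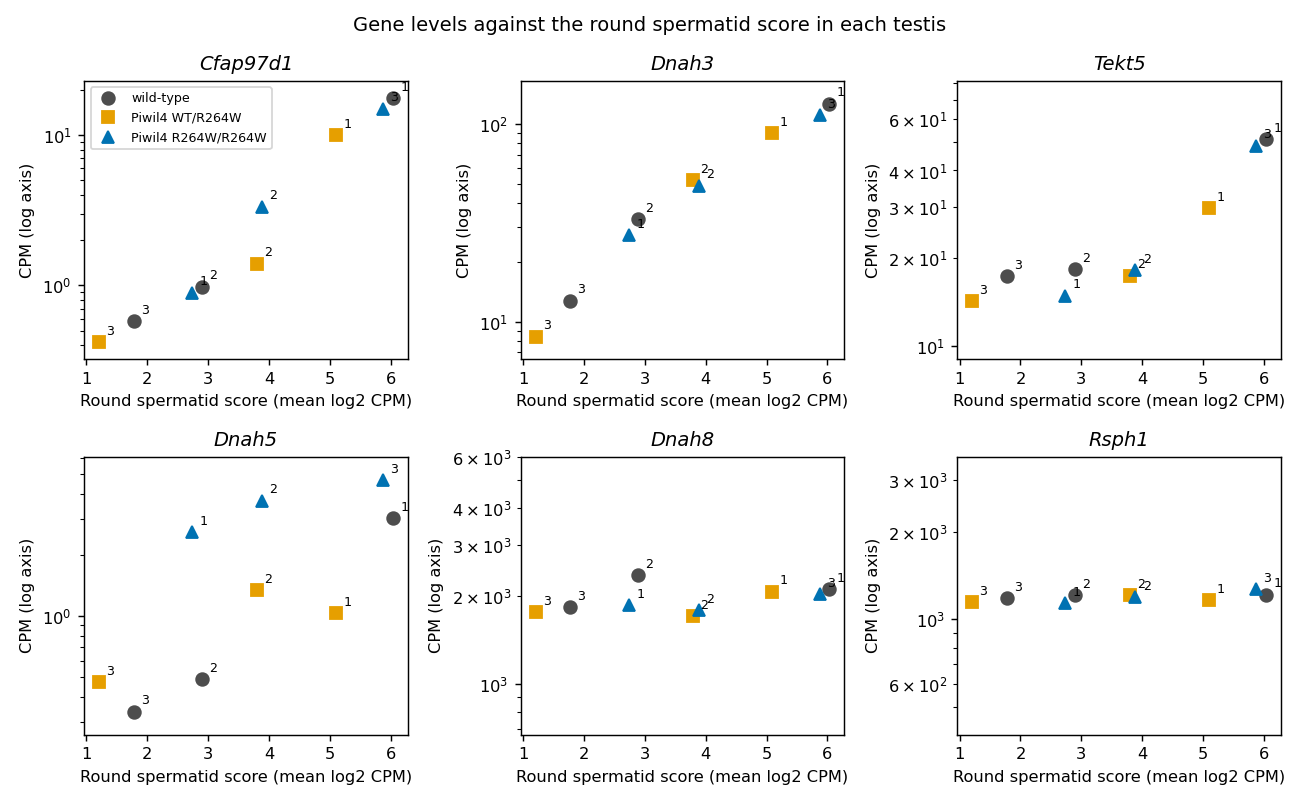
CPM (log axis) of 6 members against the round spermatid score in each testis, numbered by replicate and coloured by genotype. Cfap97d1, Dnah3 and Tekt5 climb with the score in all genotypes, Dnah8 stays between 1705 and 2357 CPM and Rsph1 between 1140 and 1273 CPM, and Dnah5 lies at 2.59 to 4.69 CPM in the homozygous testes and at 3.02 CPM in wild-type testis 1, against 0.337 to 1.34 CPM in the other 5.

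As many members rose with the score, their promoters were searched for the motifs of factors known to drive ciliary and meiotic genes. RefSeq promoters of GRCm38.p6, from 250 bases before to 50 after the start, were matched for 64 of the 77 members, 4 of them by an older symbol. Motifs were searched on both strands. A gene was counted if any of its promoters held the motif. The half-site of RFX factors, searched as GTTGCC, was present in 27 of 64 members (42.2%) and in 14.14% of 27025 genes with a promoter. The paired X-box, searched as GTTNCCNNNGNAAC, which can overlap the half-site, was present in 9 members (14.1%) and in 0.94% of these genes. These 9 were Cfap20dc, Cfap298, Cfap44, Cfap45, Cfap61, Dnaaf2, Dnaaf6, Dnaaf6b and Tekt4. The MYB motif CNGTTA, of the family of the meiotic factor Mybl1, was present in 27 members (42.2%) and in 25.91% of the genes with a promoter. The near-identical genes Dnah7a, Dnah7b and Dnah7c were each counted for the half-site and for the MYB motif, and their matches may not be independent. The cAMP response element TGACGTCA, bound by the spermatid factor Crem, was present in Dnah6 and Dnai3 (3.1%) and in 2.03% of the genes with a promoter. The median slope was 0.11 for members with and 0.10 for members without a paired X-box, 0.06 and 0.10 for the half-site, and 0.07 and 0.11 for the MYB motif. A match of letters is a description and not a binding site.

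The promoters of 4 members are shown from 250 bases before to 30 after the start, in GRCm38.p6 and 5′ to 3′ along the gene. Tekt4 and Cfap298 are shown as genes with a paired X-box that differ in slope, and Cfap97d1 and Dnah5 as the steepest gene and the gene listed by the study, both without it. Capitals mark the paired X-box in the first pair and the MYB motif in the second. The starts of Tekt4 and Cfap97d1 shown here lie inside the gene spans used for overlaps. Those spans begin at chr17:25454615 and chr11:101984279. The Tekt4 promoter lies at chr17:25471340-25471619 on the plus strand, with the X-box on the opposite strand, its first printed letter at position 1 after the start:
Tekt4: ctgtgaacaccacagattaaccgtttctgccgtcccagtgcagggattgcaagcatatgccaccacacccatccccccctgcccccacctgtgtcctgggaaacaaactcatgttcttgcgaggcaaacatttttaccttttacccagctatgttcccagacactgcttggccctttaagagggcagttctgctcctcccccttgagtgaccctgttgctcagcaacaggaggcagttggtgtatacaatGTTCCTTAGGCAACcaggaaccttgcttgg
The Cfap298 promoter lies at chr16:90934820-90935099 on the minus strand, with its X-box beginning 188 bases before the start:
Cfap298: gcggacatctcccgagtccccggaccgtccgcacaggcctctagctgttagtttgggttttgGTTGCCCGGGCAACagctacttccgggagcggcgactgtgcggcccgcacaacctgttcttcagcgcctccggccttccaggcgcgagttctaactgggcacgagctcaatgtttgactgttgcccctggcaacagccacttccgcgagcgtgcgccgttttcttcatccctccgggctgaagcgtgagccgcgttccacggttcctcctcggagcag
The Cfap97d1 promoter lies at chr11:101986806-101987085 on the plus strand, with the MYB motif on the opposite strand, its first letter 38 bases before the start:
Cfap97d1: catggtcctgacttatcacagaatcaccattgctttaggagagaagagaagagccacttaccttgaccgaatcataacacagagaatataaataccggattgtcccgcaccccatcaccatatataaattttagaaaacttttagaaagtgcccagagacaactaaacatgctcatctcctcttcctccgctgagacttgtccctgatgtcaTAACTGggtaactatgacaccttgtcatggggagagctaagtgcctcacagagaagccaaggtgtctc
The Dnah5 promoter lies at chr15:28203516-28203795 on the plus strand, with the MYB motif beginning 128 bases before the start:
Dnah5: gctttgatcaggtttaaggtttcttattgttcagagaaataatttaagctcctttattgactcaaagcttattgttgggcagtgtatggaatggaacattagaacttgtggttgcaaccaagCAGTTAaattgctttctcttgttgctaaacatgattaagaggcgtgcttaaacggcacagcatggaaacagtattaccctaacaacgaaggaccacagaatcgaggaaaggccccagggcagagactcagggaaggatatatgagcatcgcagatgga
The X-box copies of Tekt4 and Cfap298 accompany slopes of 0.37 and 0.06. Cfap298 was at 255, 241 and 212 CPM in wild-type mice, 230, 267 and 202 in heterozygous testes and 224, 232 and 263.8 in homozygous testes. Tekt4 was at 210, 114 and 68.1, at 145, 169 and 55.8, and at 105, 126 and 230 CPM in the same testes. The spread between testes was thus wide for Tekt4 and narrow for Cfap298, and in both the genotypes overlapped.

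Genotypes were then compared in pairs. Between homozygous and wild-type testes, none of the 76 members tested passed an adjusted p under 0.05 (edgeR, 0.0% of 15543 genes) and 0 passed an unadjusted p under 0.05, a level reached by 1.26% of all genes. DESeq2 also called 0 by adjusted p and 1 without adjustment. The median log2 fold change was 0.02 for the members and -0.01 for all genes, and 43 members (56.6%) lay above 0 against 48.0% of all genes. That median moved from -0.12 without homozygous testis 3 to 0.13 without wild-type testis 1, the testes with the highest score of each genotype. The number with an unadjusted p under 0.05 was 3 without wild-type testis 1, 5 without wild-type testis 3, 2 without homozygous testis 3 and 0 without any other testis.

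The groups of testes did not overlap for 2 members (2.63%, against 5.68% of all genes), both lower in the homozygotes, as were 3.56% of all genes. Dnah7b, an inner arm heavy chain, was at 348, 396 and 351 CPM in the wild-type and 333, 327 and 333 CPM in homozygous testes. Its log2 fold change was -0.14 (SE 0.076, edgeR adjusted p = 1.0), on counts divided with its copies. Dnaaf6, an assembly factor, was at 19.7, 20.1 and 22.2 against 19.3, 18.4 and 17.2 CPM, a log2 fold change of -0.18 (SE 0.110, edgeR adjusted p = 1.0). For 3 against 3 testes without overlap the exact permutation test always gives p = 0.1, its lowest value. The 0.1 that it gave for both genes therefore adds nothing to their lack of overlap.

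Homozygous compared with heterozygous testes had 0 of 76 members past an adjusted p under 0.05 (edgeR, 0.0% of 15463 genes). An unadjusted p under 0.05 was reached by 1 member (1.32%), Dnah5, which was higher, and by 2.22% of all genes, 1.17% in that direction. The number was 4 without heterozygous testis 2 and 2 without homozygous testis 1, and was 1 by DESeq2. Nearly all members leaned one way, with 71 of 76 (93.4%) above 0 against 51.4% of all genes, and a median of 0.13 against 0.01. This lean moved with the score and with single testes. The median member fold change was 0.04 with the score as a covariate, 0.002 without homozygous testis 3 and 0.03 without heterozygous testis 3. The 5 members below 0 were Cfap73, Dnah7b, Dnah11, Dnah12 and Rsph14. The groups did not overlap for 3 members (3.95%, against 7.16% of all genes), Dnah5, Cfap99 and Dnai4, all higher in the homozygotes, as were 3.37% of all genes. Cfap99, of the central apparatus, was at 32.0, 32.5 and 40.5 against 30.1, 30.7 and 25.6 CPM, a log2 fold change of 0.28 (SE 0.135, edgeR adjusted p = 0.948). Dnai4, an intermediate chain, was at 159, 160 and 184 against 157, 153 and 132 CPM, a log2 fold change of 0.19 (SE 0.099, edgeR adjusted p = 0.948).

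**Figure D4:**
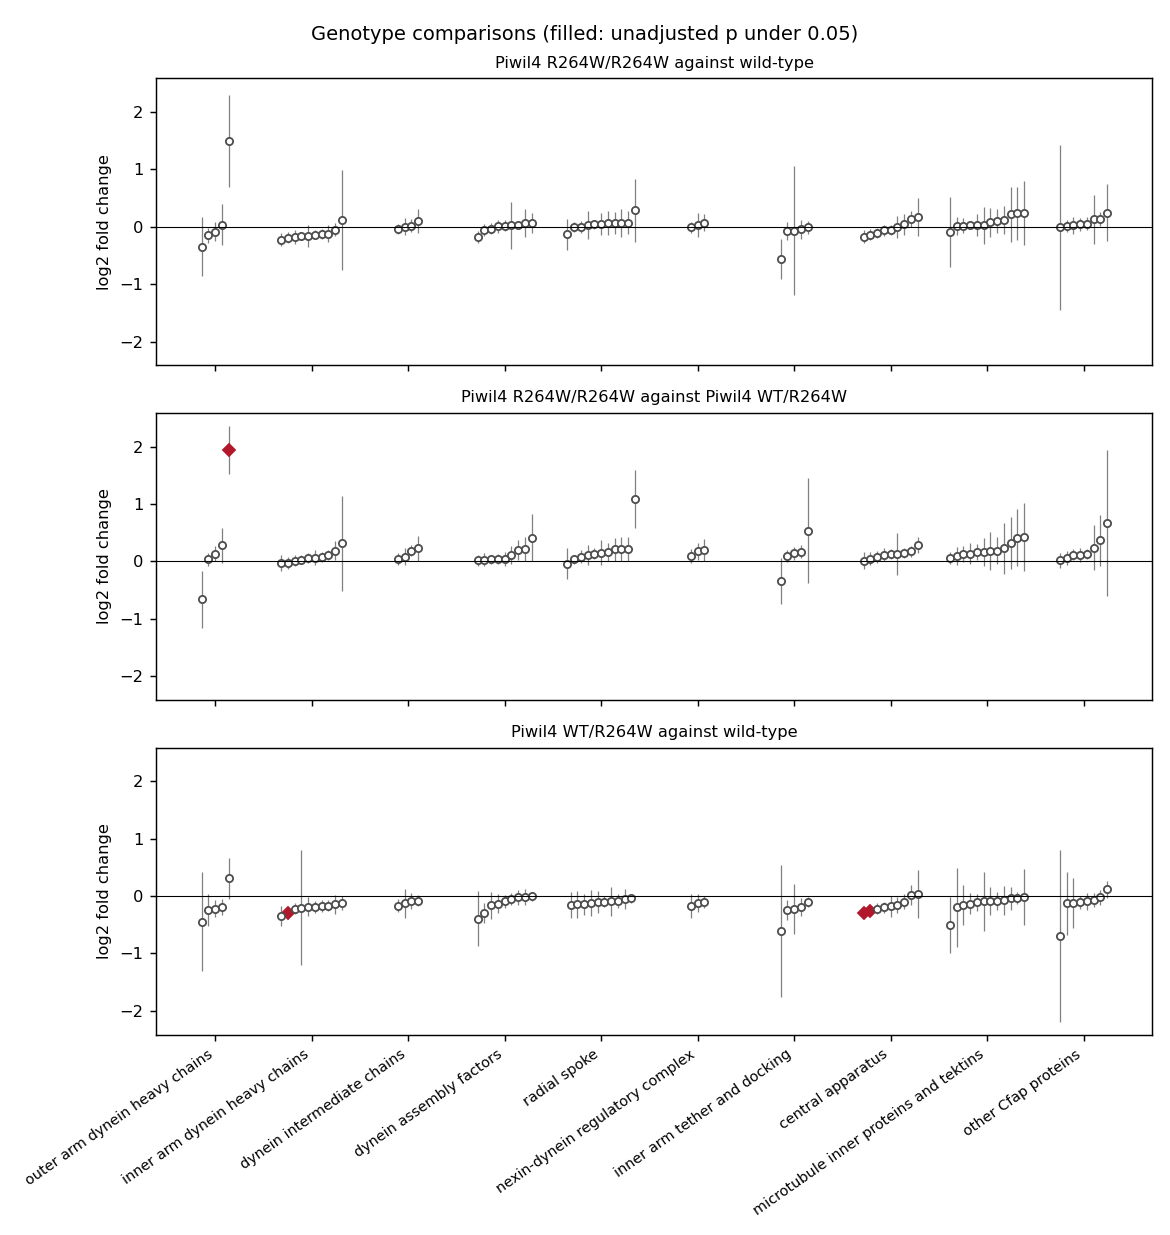
Log2 fold change of each member with bars of 1 SE in the 3 comparisons of genotypes, by part of the axoneme. Filled diamonds have an unadjusted p under 0.05, which is Dnah5 in the middle panel and Cfap46, Cfap65 and Dnah2 in the lowest panel, and 0 members passed the adjusted threshold in any panel.

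Heterozygous testes compared with wild-type testes had 0 of 75 members past an adjusted p under 0.05 (edgeR, 0.0% of 15413 genes) and 3 (4.0%) past an unadjusted p under 0.05, all lower, against 1.11% of all genes in either direction and 0.766% lower. Only Cfap47, Cfap221, Cfap410 and Dnah11 lay above 0, which is 5.33% of members against 44.9% of all genes. The median was -0.13, against -0.02 for all genes. It was 0.004 without wild-type testis 1 and -0.03 without heterozygous testis 3. The groups did not overlap for 6 members (8.0%, against 5.32% of all genes), all lower in the heterozygotes, as were 2.98% of all genes. They were Cfap65, Cfap46 and Cfap70 of the central apparatus, the inner arm heavy chains Dnah2 and Dnah7a, and Dnaaf6.

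Cfap65 was at 395, 374 and 339 CPM in the wild-type and 298, 321 and 291 CPM in heterozygous testes. The log2 fold change was -0.29 (SE 0.088, edgeR adjusted p = 1.0). Cfap46, at 168, 162 and 152 against 128, 141 and 136 CPM, had a log2 fold change of -0.26 (SE 0.078, edgeR adjusted p = 1.0). For both the lowest wild-type testis lay above the highest heterozygous testis. Dnah2, at 334, 361 and 293 against 271, 270 and 262 CPM, had a log2 fold change of -0.30 (SE 0.094, edgeR adjusted p = 1.0). DESeq2 gave 0 members by adjusted p in each of the 3 comparisons and 3 by unadjusted p in this comparison, and limma on log2(FPKM + 0.1) gave 0 and 2. The edgeR number with an unadjusted p under 0.05 was 0 without wild-type testis 2 and 8 without wild-type testis 3. In the homozygous testes, which are compared with the same wild-type testes, Cfap65 was at 290, 317 and 378, Cfap46 at 136, 151 and 162 and Dnah2 at 262, 271 and 315 CPM.

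Dnah5 had the largest genotype fold change of the members that passed the filter on low counts. It is on a list that the study chose on these samples, so its direction is not independent evidence. Its estimated counts were 65, 10 and 7 in wild-type, 23, 24 and 9 in heterozygous and 58, 91 and 82 in homozygous testes. As CPM these were 3.02, 0.490 and 0.337 (1.28 ± 1.51, SD, n = 3), 1.03, 1.34 and 0.473 (0.948 ± 0.440) and 2.59, 3.70 and 4.69 (3.66 ± 1.05). All homozygotes lay above all heterozygotes, whereas wild-type testis 1 lay inside the homozygous range and the other 2 wild-type testes were near the bottom. Against wild-type the log2 fold change was 1.5 (SE 0.799, edgeR adjusted p = 1.0, exact permutation p = 0.2). Leaving out wild-type testis 1 gave 3.13 (adjusted p = 0.625) and leaving out wild-type testis 3 gave 1.06. Against Piwil4 WT/R264W it was 1.94 (SE 0.415, edgeR adjusted p = 0.948, exact permutation p = 0.1), with an adjusted p between 0.110 and 1.0 over 13 alternatives. The heterozygotes stood at -0.45 to wild-type (SE 0.865, edgeR adjusted p = 1.0), which became 1.18 without wild-type testis 1.

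Dnah5 also had a slope on the score of 0.49 (SE 0.101, edgeR adjusted p = 0.00331), which was 0.28 (adjusted p = 0.103) without wild-type testis 1. With the score as a covariate the log2 fold change was 1.62 against wild-type (SE 0.334, edgeR adjusted p = 0.451) and 1.76 against Piwil4 WT/R264W (SE 0.301, adjusted p = 0.518). In FPKM, Dnah5 stayed below 1 in every testis at these levels. Among the genes whose log2 CPM followed Dnah5 most closely over the 9 testes were Rhox5 (Pearson r = 0.955), Aldh1a7 (0.948), C1qtnf12 (0.938) and Pon3 (0.924), picked as the closest of all genes tested. Rhox5 is expressed in Sertoli cells and was at 12.1, 8.48 and 8.10 CPM in wild-type, 10.3, 12.95 and 8.56 in heterozygous and 12.5, 14.3 and 15.3 in homozygous testes. The summed CPM of 15 Sertoli cell genes did not follow it, at 1909, 2521 and 2506 in wild-type, 2825, 2370 and 2625 in heterozygous and 2444, 2289 and 2197 in homozygous testes, and was lowest in the 3 testes with the highest Dnah5.

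Leydig cell genes had their highest sums in the 3 testes with the highest Dnah5. The summed CPM of 10 Leydig cell genes was 473, 267 and 230 in wild-type, 337, 327 and 233 in heterozygous and 336, 493 and 492 in homozygous testes. The 3 testes with the lowest Leydig sums were those with the lowest Dnah5. Of that list Cyp11a1 (21.5 to 89.0 CPM) and Insl3 (20.1 to 119 CPM) were well above 0 in every testis and Cyp2a4 was at most 0.112 CPM. Cyp17a1 was at 96.3 and 87.8 CPM in homozygous testes 2 and 3, 53.6 in wild-type testis 1, 56.7 in heterozygous testis 1 and 4.56 to 10.1 elsewhere. Not all genes of the list followed the sums. Insl3 was at 59.2 CPM in homozygous testis 2 and 89.2 in heterozygous testis 2. Star was at 19.4 CPM in homozygous testis 3 and 51.7 in heterozygous testis 1. Hsd3b1 was at 64.4 CPM in wild-type testis 1 and 85.8 in heterozygous testis 2. Between the mutant genotypes the 9 Leydig genes tested had a median log2 fold change of 0.55, and 1 of them, Hsd3b6, had an unadjusted p under 0.05 (edgeR adjusted p = 0.948), beside 2.22% of all genes. Star and Nr5a1 of the same list had log2 fold changes of -0.006 and 0.009. The median was -0.14 for the 15 Sertoli cell genes (1 lower at an unadjusted p under 0.05), -0.006 for 7 peritubular myoid genes (0 at that level), 0.17 for 8 macrophage genes (0) and -0.26 for 15 spermatogonial genes (4 lower), with 0 genes of these lists past an adjusted p under 0.05 in edgeR. The epididymal genes Crisp1 and Adam7 reached 39.5 and 7.91 CPM in homozygous testis 1 and at most 5.34 and 0.392 CPM elsewhere, while Gpx5, Lcn8 and Lcn9 of that list of 14 were at 0 in every library. Others of the list had another pattern, with Cst8 at 1.05 to 23.0 CPM and highest in wild-type testis 1, and Rnase10 at 4.31 to 6.87 CPM. The part of these cells in the Dnah5 values was not tested.

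With the score as a covariate, more members had an unadjusted p under 0.05 against wild-type, still with 0 past an adjusted p under 0.05. Against wild-type, 12 of 76 members (15.8%) had an unadjusted p under 0.05 in homozygous testes, where 4.96% of all genes did. Dnah5 was higher (2.32% of all genes were) and 11 were lower (2.64% of all genes were), of which 7 were heavy chains, namely Dnah2, Dnah7a, Dnah7c, Dnah8, Dnah10, Dnah12 and Dnah14. The other 4 were Cfap46, Cfap65, Cfap74 and Tekt5. Fold changes of the heavy chains were small, from -0.25 (Dnah2, SE 0.076, edgeR adjusted p = 0.945) to -0.15 (Dnah14, SE 0.061, adjusted p = 0.953). In the heterozygous testes 9 of 75 members (12.0%, against 2.07% of all genes in either direction and 1.28% lower) had an unadjusted p under 0.05 and a lower fitted level than wild-type, among them Dnah2, Dnah7a and Dnah10. Between the mutant genotypes 1 member, Dnah5, passed and was higher, beside 2.99% of all genes, 1.66% in that direction. The comparisons against wild-type share the same 3 control testes.

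Heavy chains stood high in wild-type testis 2. Of the 12 heavy chain genes with a mean of at least 1 FPKM, 5 had their highest CPM in wild-type testis 2 and 5 in wild-type testis 1. A line on the score was then fitted without genotype terms, so a difference between genotypes would remain in its residuals. The median log2 residual of these 12 genes was 0.291 in wild-type testis 2, and between -0.158 and 0.067 in the other testes. It was 0.067 in wild-type testis 1 and 0.005 in wild-type testis 3. In wild-type testis 2 the median was 0.066 for the other 59 members at that level. There it was 0.070 for 284 other genes with a longest transcript of at least 10 kb and -0.031 for 3146 genes under 2 kb. In a fit without wild-type testis 2, chosen after seeing the data, 10 members had an unadjusted p under 0.05 in homozygous testes (7.50% of all genes did), and 7 of them were lower, 4 of these heavy chains. The 4 were Dnah2, Dnah10, Dnah7a and Dnah7c, the last 2 with counts divided between near-identical copies. The share of all genes that were lower in this fit was not worked out. In the heterozygous testes 2 members then had an unadjusted p under 0.05, Cfap65 and Tekt5, beside 2.40% of all genes, and 0 heavy chains did.

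**Figure D5:**
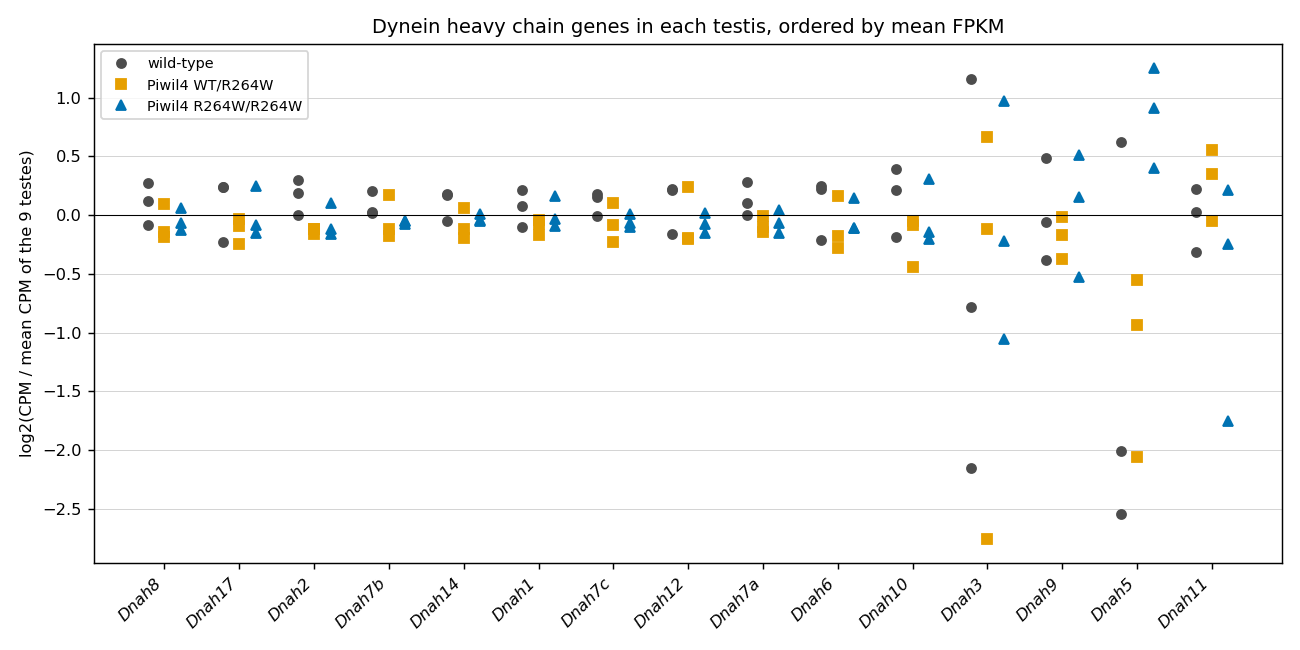
Log2 of CPM over the mean CPM of 9 testes for the 15 heavy chain genes, ordered by mean FPKM, with a point for each testis and symbols for genotypes. Most heavy chains lie within about 0.5 of their mean, Dnah3, Dnah5 and Dnah11 spread over more than 2 units, and the homozygous testes form the upper group for Dnah5 together with wild-type testis 1.

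Other genes of the pathway, none of them a member, were read beside the set. Of 68 further axonemal components in the table, 66 were tested and 50 rose with the score, beside 17.6% of all genes, with a median slope of 0.12. The steepest were Saxo1, a stabiliser of axonemal microtubules (slope 1.67, edgeR adjusted p = 7.27e-09), and Cby2 (1.15, adjusted p = 2.63e-10). Saxo1 was at 27.7, 1.03 and 0.241 CPM in wild-type, 17.1, 2.35 and 0.105 in heterozygous and 0.313, 4.39 and 27.5 in homozygous testes, in the order of the score like Cfap97d1. The most abundant were Ropn1l, a spoke-associated protein (580 ± 74.5 FPKM, SD, n = 9), and Mns1, a microtubule inner protein (256 ± 19.1 FPKM). Saxo2 and Dnal1, an outer arm light chain, had the smallest p against wild-type in homozygous testes (log2 fold changes of -0.25 and -0.15, edgeR adjusted p = 1.0 for both).

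Intraflagellar transport, which carries axonemal parts to the growing tip, had 10 of 30 genes that rose with the score (17.6% of all genes) and a median slope of 0.04. Kif17, a transport motor, was the steepest (0.69, edgeR adjusted p = 2.99e-09). The most abundant genes Ift140 (171 ± 10.7 FPKM, SD, n = 9) and Ift46 (118 ± 18.0 FPKM) had slopes of 0.05 and 0.02 that did not pass. Ift80 and Dync2h1 had the smallest p in Piwil4 R264W/R264W against wild-type testes (log2 fold changes of -0.12 and -0.15, edgeR adjusted p = 1.0 for both).

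Of 16 tested transcription factors linked to cilia or to meiotic and spermatid expression, 12 rose and 2 fell with the score (17.6% and 8.61% of all genes), with a median slope of 0.11. Sox5 (0.69), Rfx1 (0.49) and Foxj1 (0.39) had the largest slopes of the 16, and Rfx2, an RFX factor of spermatids at 106 ± 15.4 FPKM, rose with a slope of 0.11 (edgeR adjusted p = 0.0129). Mybl1 and Rfx7 fell, each with a slope of -0.07 (edgeR adjusted p = 0.0301 and 0.0412). Tcfl5 was the most abundant with 158 ± 10.6 FPKM. Rfx7 and Rfx4 had the smallest p in Piwil4 R264W/R264W against wild-type testes (log2 fold changes of -0.18 and -0.14, edgeR adjusted p = 1.0 for both). In that comparison 0 genes of the 3 lists had an unadjusted p under 0.05, beside 1.26% of all genes.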

How the data were processed

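Testes of 9 mice took their genotype from the labels, and column names were matched to those, and no column of per-sample values was left unused (0). Per the labels and the methods, libraries of polyadenylated RNA were sequenced in pairs of reads. The submitters' processing notes name fastp 0.18.0, StringTie 1.3.1, DESeq2 and the genome build mm39, and the aligner, annotation and counting tool are not given in the sources used here. The authors deposited FPKM values and estimated counts per gene and testis. Of the estimated counts 89.2% were whole within 0.005, and 16 of the 77 members had fractional counts. Chi-square per degree of freedom between replicates was 7.43 to 73.5, so all 9 libraries were taken as separate. Coordinates and overlaps come from GENCODE M21 on GRCm38, matched by Ensembl identifier for all 77 members (22 overlap another coding gene), and differ from mm39.

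Estimated counts were rounded to whole numbers and fitted over the whole table with edgeR (version 4.0.16, R 4.3.3): filterByExpr, TMM scaling, quasi-likelihood test, two-sided, Benjamini-Hochberg over all genes tested, on the 6 testes of each pair of genotypes. The slope was the coefficient of the score with genotype in the model over 9 testes. CPM uses TMM, and scores use a prior count of 1. No source states that replicates were separate litters, so p-values measure the spread between these testes. The procedure was tested on simulated data with known changes. These lay in well-counted genes and were larger than most genotype fold changes of the members. The simulation therefore does not cover small changes or genes with few counts such as Dnah5. Alternatives were DESeq2 (1.42.0), its size factors, other filters, all 9 testes in 1 fit, a replicate block, the score as a covariate, limma (3.58.1) on log2(FPKM + 0.1) and log2(FPKM + 1), and each testis left out.

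The members and lists were chosen with earlier results of these data known. Members named were Dnah5 and the other heavy chains, the 10 with the highest FPKM, the 2 highest of each part of the axoneme, those without overlap between genotypes (up to 5 in each direction), the 5 largest and 5 smallest slopes, and those with 3 counts or fewer throughout. In each pathway list the 2 most abundant and the 2 with the smallest p were named. The 5 genes most alike to Dnah5 were those with the largest Pearson r, of which 1 is not reported here. Members named beyond this rule, the steepest pathway genes and the promoters shown were chosen after their values were seen.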

Additional observations from a re-analysis of the deposited data

How the results depend on the processing

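Under all alternatives run, 0 members passed an adjusted p under 0.05 in any comparison of genotypes. The number with an unadjusted p under 0.05 in Piwil4 R264W/R264W against wild-type testes (0) became 1 with DESeq2, with all 9 testes in 1 fit and with limma on log2(FPKM + 0.1) without a filter, 12 with the score as a covariate and 10 in that fit with wild-type testes 1 and 3 only, which was chosen after seeing the data. It was 0 to 5 with a testis left out. In Piwil4 R264W/R264W against Piwil4 WT/R264W testes the number (1) became 0 with at least 10 counts in every library, where Dnah5 was no longer tested, and 0 with limma on log2(FPKM + 0.1) and on log2(FPKM + 1), and was 1 to 4 with a testis left out. In Piwil4 WT/R264W against wild-type testes it (3) became 6 with the replicate block and 9 with the score as a covariate, and was 0 to 8 with a testis left out. The Dnah5 fold change of the heterozygotes reversed to 0.066 with the score as a covariate and to 1.18 without wild-type testis 1, and ran from -0.895 to 1.18 with a testis left out. The number of members with a positive slope (48) was 16 without the 2 testes farthest from the median score, 31 to 53 with a testis left out, and 36 to 52 in the other fits, 42 with the replicate block. The median slope on the pachytene score was 1.74, per unit of a score with a narrower range. The slope of Cfap20 reversed to -0.015 with limma, -0.007 without the 2 far testes and -0.012 without Piwil4 WT/R264W testis 3 (-0.012 to 0.026 with a testis left out), and that of Rsph1 to -0.010 with limma. The cause of these changes was not tested. Deviations of same-numbered testes from their genotype means correlated at -0.734, 0.065 and -0.722 between Piwil4 R264W/R264W and wild-type. The values were -0.648, -0.152 and -0.734 between the mutants, and 0.713, -0.073 and 0.784 between Piwil4 WT/R264W and wild-type. These correlations cannot settle whether the replicate numbers pair the testes. The score itself fell from testis 1 to testis 3 in wild-type and heterozygous mice and rose in homozygous mice. With the replicate block, 0 members passed the adjusted threshold between genotypes. Depth limits most the 6 members with under 10 counts in at least 1 library, Cfap97d2, Dnah11, Rsph4a, Dnah5, Dnaaf6b and Cfap97d1.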
